A study of Mus musculus with 30 samples.

Results

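The genes described here are 9 members of the SLAM system, 8 cell surface receptors (Cd244a, Cd48, Cd84, Ly9, Slamf1, Slamf7, Slamf8 and Slamf9) and the adaptor Sh2d1b1, among 11260 genes tested on 30 two-colour arrays. Cd244a and Sh2d1b1 were chosen by their fall with LPS in these same arrays, and the other 7 were taken with them as members of the family. The LPS differences of Cd244a and Sh2d1b1 are therefore given as a description, with no test, and were used to support nothing. Their genotype differences were tested, on arrays that this choice had also used. All 9 members passed the filter on dim probes, 8 of them in several groups and Slamf1 through a single group, control cells at 24 h of LPS, in which it was highest. Because the filter admitted Slamf1 through that group, its differences against that group are given as values of the fit and support nothing. Counts of members in that fit are given with and without Slamf1 where it was called, and counts under other settings include it.

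SLAM receptors are immunoglobulin-like proteins of blood cells. Most of them bind a copy of themselves on a neighbouring cell, while CD244 (2B4) binds CD48, a receptor that is anchored to the membrane by a lipid and has no signalling tail. Several carry tyrosine switch motifs in the cytoplasmic tail that recruit the small SH2 adaptors SAP (Sh2d1a) and EAT-2 (Sh2d1b1), which couple the receptors to Src family kinases and phospholipase C gamma. Dendritic cells and macrophages are known to carry several of these receptors, and SLAMF1 is known to bind Gram-negative bacteria in mouse phagocytes.

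RNA came from bone marrow-derived dendritic cells of C57BL/6 mice, selected for CD11c with magnetic beads after any LPS. There were 6 groups of 5 biological replicates: CD11c-Cre IRF-4 flox/flox cells (KO) left unstimulated or given LPS for 6 h or 24 h, and CD11c-Cre cells (control) left unstimulated or given LPS for 6 h or 24 h. The Cre transgene, which is driven by the CD11c promoter, was thus present in every group, and deletion was limited to cells that had turned that promoter on. The labels call the replicates biological without saying if each was its own mouse, and p-values therefore cover the spread among these samples, which may be technical.

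Each array set Cy5-labelled sample RNA against a Cy3-labelled universal mouse reference RNA, and a level below is the log2 ratio of sample over reference for the brightest probe of a gene. Such levels can be compared between arrays for one gene and not between genes. The number of arrays limits the precision: 44.8 to 66.1% of probes per array were well above background. Irf4 itself, whose product is the transcription factor removed here, had a KO level below the control level by 2.90 at 0 h, 2.42 at 6 h and 2.17 at 24 h on the log2 scale, with no overlap of the groups at any time (limma adjusted p = 3.6e-08, 8.8e-07 and 2.7e-06). A gene is called here at a limma adjusted p under 0.05 (Benjamini-Hochberg over all genes).

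Several arrays stood apart. A slide scanned on a later day held replicate 3 of the control cells at 6 h and replicate 2 of those at 24 h, and both lay nearest to the mean of unstimulated control arrays (r = 0.738 and 0.574) rather than to their own groups (r = -0.309 and 0.273). KO LPS 24 h replicate 4 lay nearest to control LPS 24 h, and control LPS 6 h replicate 2 nearest to KO LPS 6 h. Replicates 4 and 5 differed from replicates 1 to 3 in the same direction in all 6 groups for 6168 genes, 54.8% of those tested. No slide held both genotypes at 1 treatment. Because RNA is from bulk cells, fewer cells of a type and less RNA per cell cannot be told apart in any result below.

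Marker genes were compared in the same fit. Of 12 dendritic cell markers 10 were past the filter (Flt3 and Kmo were not), and of these 6, 4 and 3 were lower and 0 higher in KO cells at 0, 6 and 24 h, among them Ciita, Cd74 and Dpp4 at every time. The mean level of the 10 ran from 1.61 to 2.76 in KO and from 3.19 to 3.49 in control unstimulated cells, and from 2.75 to 3.23 in KO and from 3.24 to 3.79 in control cells at 24 h. Of 7 tested neutrophil markers 1, 3 and 4 were lower in KO cells at 0, 6 and 24 h, with a mean level of 0.48 to 1.82 in KO and 1.42 to 3.16 in control unstimulated cells. Of 9 tested macrophage markers 2, 0 and 1 were higher in KO cells. Of 5 tested markers each of B and plasma cells and of plasmacytoid dendritic cells at most 1 was called at a time, and of 3 of stem cells and megakaryocytes at most 2. Ncr1, Klrb1c, Eomes, Prf1, Gzma, Cd3d and Cd2 of the NK and T cell list were not past the filter in any group. Klrd1, Gzmb, Cd3e, Cd3g and Cd4 of that list were, and at 6 h Gzmb was lower and Cd4 higher in KO cells. Cpa3, Mcpt4, Mcpt8, Ms4a2 and Tpsb2 of the mast cell and basophil list were not past it, while Kit, Fcer1a, Gata2, Prss34 and Cma1 were. All 5 of these were well above background on every unstimulated control array, and 0 of the 5 on every unstimulated KO array. The part of other cell types in the genotype differences below was not tested.

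The promoters of 8 of the 9 members matched the RefSeq table on GRCm38.p6, which gives 250 bases before and 50 after each start site, and Ly9 was not matched. Shown here are those of Sh2d1b1 and Cd244a, which fell together with LPS, of Slamf7, which rose, and of Slamf9, which differed between genotypes in unstimulated cells. All are written 5′ to 3′ in the direction of the gene, with matches to the searched words in capitals.
Sh2d1b1, chr1:170277068-170277367, plus strand: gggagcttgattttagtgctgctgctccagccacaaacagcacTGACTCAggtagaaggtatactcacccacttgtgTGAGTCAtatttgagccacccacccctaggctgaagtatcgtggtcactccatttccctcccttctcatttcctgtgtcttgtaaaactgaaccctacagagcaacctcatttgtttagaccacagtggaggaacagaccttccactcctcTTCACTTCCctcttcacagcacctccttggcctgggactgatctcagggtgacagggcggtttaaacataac
Cd244a, chr1:171558943-171559242, plus strand: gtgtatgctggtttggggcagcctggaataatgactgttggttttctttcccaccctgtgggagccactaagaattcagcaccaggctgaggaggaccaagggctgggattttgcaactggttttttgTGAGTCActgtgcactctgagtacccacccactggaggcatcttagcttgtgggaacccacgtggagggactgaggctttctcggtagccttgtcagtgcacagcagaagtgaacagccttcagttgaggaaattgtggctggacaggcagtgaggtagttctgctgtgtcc
Slamf7, chr1:171648950-171649249, minus strand: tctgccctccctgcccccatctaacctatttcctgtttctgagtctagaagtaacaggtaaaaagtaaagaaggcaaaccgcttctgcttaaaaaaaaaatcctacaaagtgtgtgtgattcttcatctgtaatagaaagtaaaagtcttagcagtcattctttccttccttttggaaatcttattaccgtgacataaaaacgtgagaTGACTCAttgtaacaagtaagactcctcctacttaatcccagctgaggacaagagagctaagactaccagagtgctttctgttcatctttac
Slamf9, chr1:172475110-172475409, plus strand: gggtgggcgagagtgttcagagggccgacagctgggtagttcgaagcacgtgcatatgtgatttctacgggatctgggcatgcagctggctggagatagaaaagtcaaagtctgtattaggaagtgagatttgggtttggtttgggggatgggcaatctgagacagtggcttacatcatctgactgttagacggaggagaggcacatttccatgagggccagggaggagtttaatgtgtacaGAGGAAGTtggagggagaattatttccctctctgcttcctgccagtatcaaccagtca
All 6 words were searched on both strands. TGANTCA, the AP-1 word, which is its own reverse complement, was found in 5 of 8 member promoters (Cd244a, Sh2d1b1, Slamf7, Cd84 and Slamf8) and in 7.81% of 32851 promoters of the same length. Its leftmost base lay at -122 in Cd244a, at -207 and -173 in Sh2d1b1 and at -42 in Slamf7, counted from the start site. GGAANNGAA, the word bound jointly by an ETS factor and an interferon regulatory factor such as IRF4, was found in 1 of 8, that of Sh2d1b1 on its minus strand at -22, and in 8.24% of all promoters. GAGGAAGT, the PU.1 word, was found in 1 of 8, that of Slamf9 at -8, and in 3.2% of all promoters. GAAANNGAA, the interferon response word, was found in 2 of 8 (Cd84 and Slamf8) and in 8.56% of all. TTCNNNGAA, the STAT word, was found in 0 of 8 and in 8.3% of all, and GGNNNTTCC, the NF-kB word, in 1 of 8 (Slamf8) and in 18.5%. In the promoters shown, no 2 matches overlapped. A match describes these letters only, and its absence says nothing of the factor.

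**Figure D1:**
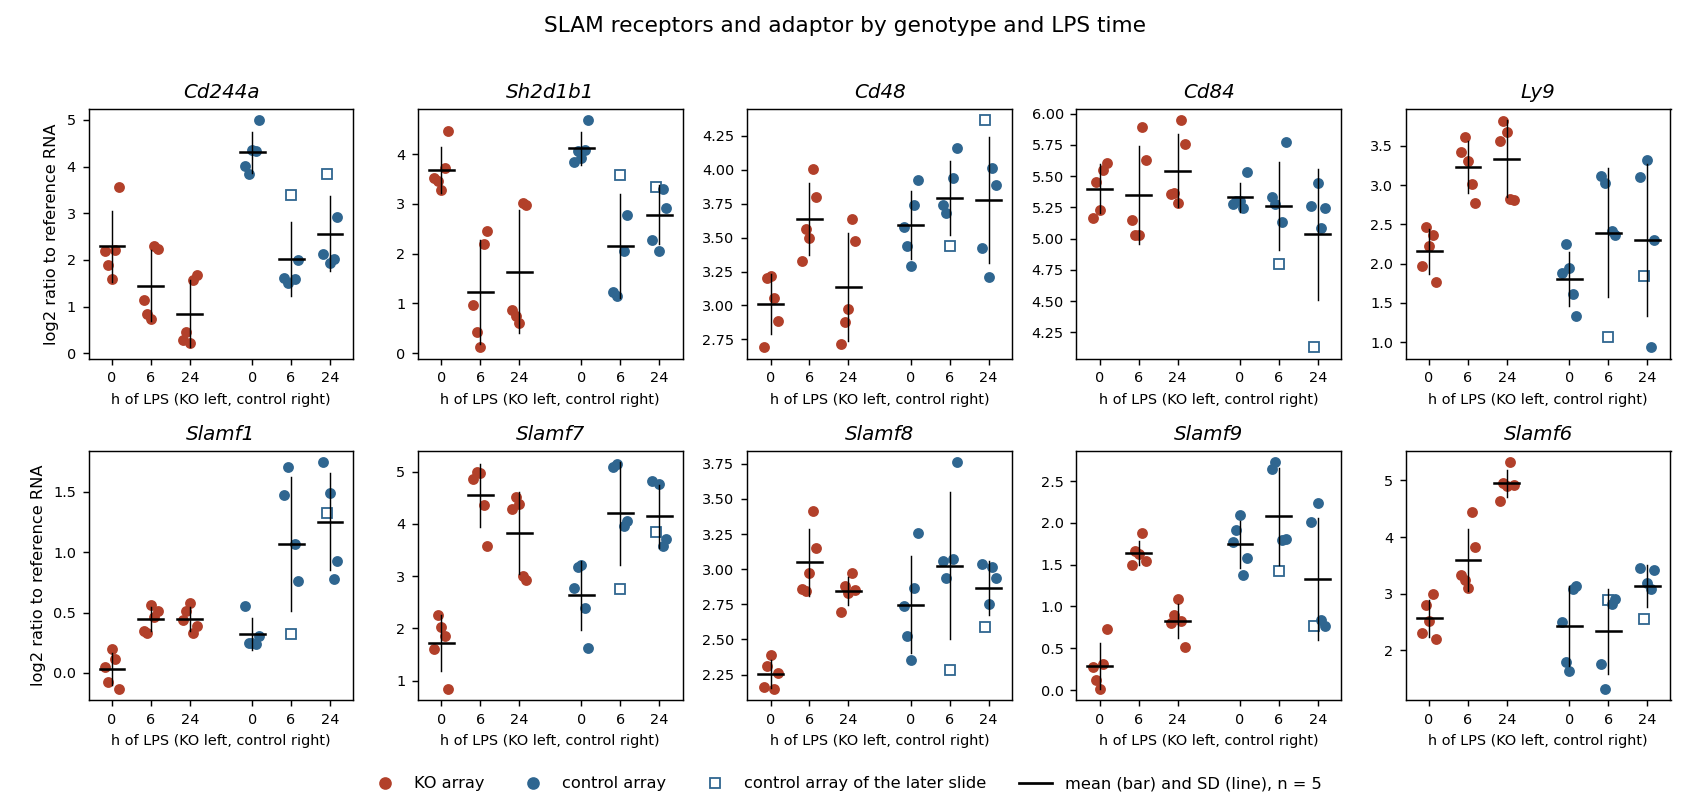
Level of each gene on each array (log2 ratio of sample over universal reference RNA, y axis) against hours of LPS (x axis), with KO groups on the left and control groups on the right of every panel, black bars for means and thin lines for SDs of 5 arrays. Cd244a and Sh2d1b1 sit highest in unstimulated cells, Slamf7 sits lowest there, and the open squares are the control arrays of the slide scanned later.

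Between genotypes, 3 receptors other than Slamf1 were called at 1 or more times, and all were lower in KO cells. Cd244a was 4.06-fold lower in unstimulated KO cells and 3.30-fold lower in KO cells at 24 h of LPS, and Slamf9 was 2.74-fold lower in unstimulated KO cells. The choice of Cd244a by its fall with LPS used these same arrays, so its genotype differences are not independent of that choice. Cd48, the ligand of CD244, was 1.56-fold lower in KO cells at 24 h. Slamf1, which the filter admitted through its highest control group alone, was 1.54-fold and 1.75-fold lower in KO cells at 6 h and 24 h. No member was called higher in KO cells in the fit used for the values above. At 24 h both Cd84 and Ly9 were called higher with a term for replicates 4 and 5, with replicate numbers as a block and with Cy5 alone. Ly9 was also called higher at 24 h with median centring and with probe means. With slide as a fixed term Ly9, Slamf1 and Slamf7 were called higher at 0 h, and Ly9 at 6 h.

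In unstimulated cells 2 of 9 members were called (Cd244a and Slamf9), against 14.1% of all genes tested, and the median difference of the 9 was -0.49 against -0.038 over all genes. At 6 h of LPS 1 of 9 was called (Slamf1, and 0 of the other 8 by limma, of which 1, Ly9, had an unadjusted p under 0.05), against 12.1% of all genes, with a median of -0.15 against -0.012. At 24 h 3 of 9 were called (Cd244a, Cd48 and Slamf1; 2 of 8 without Slamf1, whose call the filter favours), against 15.4% of all genes, with a median of -0.50 against -0.0051. These counts are near the share of all genes, or rest on few genes, so they say nothing particular of the family.

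Cd244a encodes the receptor 2B4, best known from NK cells. In unstimulated cells its level was 2.18, 1.90, 1.59, 2.20 and 3.56 on the KO arrays, against 4.02, 3.84, 4.37, 4.33 and 4.99 on the control arrays. Every KO array was below every control array, the nearest being KO replicate 5. These unstimulated arrays also entered the choice of Cd244a by its fall with LPS, which the p-values below do not take into account. The difference was -2.02 ± 0.44 (SE, log2; adjusted p = 0.00203; exact permutation test on the level p = 0.00794, the smallest that 5 against 5 arrays allow).

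At 6 h of LPS the level of Cd244a was 1.14, 0.84, 0.73, 2.29 and 2.23 on the KO arrays, against 1.61, 1.51, 3.39, 1.60 and 2.01 on the control arrays. The groups overlapped, and the difference of -0.57 ± 0.44 (SE, log2) was not called (adjusted p = 0.449). At 24 h the level was 0.29, 0.45, 0.23, 1.57 and 1.68 on the KO arrays, against 2.12, 3.84, 1.93, 2.02 and 2.92 on the control arrays. The groups were again separate, with KO replicates 4 and 5 nearest to the control arrays. The difference was -1.72 ± 0.44 (SE, log2; adjusted p = 0.00701), and -1.40 without the 2 arrays of the later slide (adjusted p = 0.0150). A second, dimmer probe of Cd244a had group means of 0.31 in unstimulated KO cells against 1.29 in unstimulated control cells, and of 0.015 in KO cells against 0.44 in control cells at 24 h. This probe was well above background on 3 of 5 KO and 5 of 5 control arrays at 0 h. At 24 h it was so on 0 of 5 KO and 2 of 5 control arrays.

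Eosinophils and mast cells are also known to carry CD244. The eosinophil marker Siglecf was lower in KO cells by 1.68, 2.34 and 2.61 on the log2 scale at 0, 6 and 24 h (adjusted p = 0.00464, 0.000225 and 4.2e-05). Siglecf was thus called at every time. Cd244a differed by -2.02, -0.57 and -1.72 at 0, 6 and 24 h, and the 6 h value was not called. Its limma interval at 6 h was wide, from -1.47 to 0.32. Siglecf and Cd244a were not tested against each other, so their calls do not tell their differences apart. The part of eosinophils in the Cd244a difference was not tested. Of the 2 tested eosinophil markers 1, 2 and 2 were lower in KO cells, and their mean level per array was 1.67 to 2.00 in KO and 2.64 to 3.64 in control unstimulated cells, and 0.38 to 1.52 in KO and 2.02 to 3.63 in control cells at 24 h. Epx and Prg3 were not past the filter. For the 5 tested markers of mast cells and basophils it was -0.20 to 0.093 in KO and -0.035 to 0.12 in control unstimulated cells, and none of them was called at 0 h. At 24 h it was -0.15 to 0.32 in KO and -0.021 to 1.01 in control cells, and 1 of the 5 was lower in KO cells. The 5 tested NK and T cell markers averaged -0.31 to -0.083 in KO and -0.020 to 0.19 in control unstimulated cells, where 1 of them, Klrd1, was lower in KO cells by 0.83 on the log2 scale. At 24 h they averaged -0.18 to 0.41 in KO and -0.098 to 0.11 in control cells.

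A pair of settings bears on this result. With the local backgrounds as scanned, the difference in unstimulated cells was -1.46 and no longer called (adjusted p = 0.0743). With slide as a fixed term it was -3.32 in unstimulated cells (adjusted p = 0.0109) but 0.51 at 24 h (adjusted p = 0.706), a comparison that then rests on a chain of slides, in which 1 array links the KO arrays at 24 h to the others. The mean of both probes gave -1.07 at 24 h (adjusted p = 0.0187). The dimmer probe was then well above background on 0 of 5 KO arrays.

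Slamf9 encodes a receptor with a short tail that lacks the switch motif. In unstimulated cells its level was 0.28, 0.12, 0.012, 0.31 and 0.73 on the KO arrays, against 1.77, 1.91, 2.09, 1.37 and 1.58 on the control arrays. The groups were far apart, and the difference of -1.45 ± 0.26 (SE, log2; adjusted p = 0.00031) had the smallest adjusted p of the 9 members in these cells. With LPS the groups came to overlap. At 6 h the level was 1.50, 1.67, 1.63, 1.87 and 1.54 on the KO arrays, against 2.65, 2.73, 1.42, 1.79 and 1.80 on the control arrays, and the difference of -0.44 was not called (adjusted p = 0.311). At 24 h it was 0.80, 0.89, 1.09, 0.83 and 0.52 on the KO arrays, against 2.01, 0.77, 2.24, 0.84 and 0.77 on the control arrays, of which 2 were high and 3 lay among the KO arrays (difference -0.50, adjusted p = 0.219). With slide as a fixed term the difference in unstimulated cells was 0.51 (adjusted p = 0.243).

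Slamf1 encodes the receptor that gave the family its name. Its probe was dim: 0 of 5 arrays were well above background in unstimulated KO cells, 3 of 5 in KO cells at 6 h and at 24 h, and 4, 4 and 5 of 5 in control cells at 0, 6 and 24 h. At 6 h of LPS its level was 0.35, 0.33, 0.56, 0.46 and 0.51 on the KO arrays, against 1.47, 1.71, 0.32, 1.07 and 0.76 on the control arrays. All control arrays but replicate 3, on the later slide, were above every KO array, and the difference was -0.62 ± 0.18 (SE, log2; adjusted p = 0.0257). At 24 h the level was 0.44, 0.51, 0.58, 0.33 and 0.39 on the KO arrays, against 1.75, 1.33, 1.49, 0.78 and 0.92 on the control arrays. The groups did not overlap, and the difference was -0.80 ± 0.18 (SE, log2; adjusted p = 0.00324), a value that the filter favours, since this control group alone let Slamf1 pass.

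In unstimulated cells only a bound on the means can be given for Slamf1. In Cy5 signal, the observed control mean was at least 1.15-fold above the KO mean. The lowest signal well above background on each array stood in as the KO level where the probe was dimmer. This bound has no interval, and 4 of 5 control arrays were well above background. The fitted difference of -0.29 was not called (adjusted p = 0.33). The call at 6 h was lost with slide as a random block (-0.60, adjusted p = 0.0537), with Cy5 alone, with the backgrounds as scanned, and when KO replicate 1 or 2 or control replicate 1, 2 or 4 was left out. With slide as a fixed term the difference was 1.38 at 0 h (adjusted p = 0.000798), 0.35 at 6 h and -2.20 at 24 h. With the scanner software's own log ratios it was -1.65 at 0 h (adjusted p = 0.00904) and -1.41 at 24 h.

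Cd48 is widely expressed on blood cells. In unstimulated cells its level was 2.69, 3.20, 3.22, 3.05 and 2.89 on the KO arrays, against 3.58, 3.44, 3.29, 3.74 and 3.92 on the control arrays. Every KO array was below every control array, yet the difference of -0.58 ± 0.20 (SE, log2) missed the threshold (adjusted p = 0.0515; 0.0268 without the later slide). At 6 h the level was 3.33, 3.56, 3.50, 4.00 and 3.80 on the KO arrays, against 3.74, 3.68, 3.44, 3.94 and 4.16 on the control arrays, and the groups overlapped (difference -0.15, adjusted p = 0.695). At 24 h it was 2.71, 2.88, 2.97, 3.64 and 3.48 on the KO arrays, against 3.42, 4.36, 3.21, 4.01 and 3.89 on the control arrays. The difference was -0.64 ± 0.20 (SE, log2; adjusted p = 0.0288) with some overlap, and it was -0.50 and not called without control replicate 2 (adjusted p = 0.114). It was also not called without KO replicate 1, 2 or 3 or control replicate 4 or 5, with slide as a random block (adjusted p = 0.0715) or fixed term (0.25, adjusted p = 0.736), with the backgrounds as scanned, with the scanner's own log ratios or with only the arrays compared in the fit. A second probe of Cd48 gave group means of 2.81 in KO cells against 3.51 in control cells at 0 h and 2.97 in KO cells against 3.65 in control cells at 24 h.

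The remaining members were not called between genotypes. Sh2d1b1 differed by -0.43 (adjusted p = 0.629), -0.93 (adjusted p = 0.27) and -1.14 (adjusted p = 0.147) at 0, 6 and 24 h, with wide 95% intervals that ran from -2.20 to -0.084 at 24 h. Slamf7 differed by -0.92, 0.35 and -0.32 (adjusted p = 0.163, 0.67 and 0.694), Slamf8 by -0.49, 0.024 and -0.021 (adjusted p = 0.0705, 0.958 and 0.959; -1.79 at 0 h with Cy5 alone, adjusted p = 0.000278) and Cd84 by 0.070, 0.085 and 0.51 (adjusted p = 0.865, 0.852 and 0.106). Ly9, a self-binding receptor, was the only member with a positive difference near the threshold, at 1.04 ± 0.36 (SE, log2) at 24 h (adjusted p = 0.0513), after 0.36 and 0.83 at 0 h and 6 h. Its 24 h difference was called with median centring (1.06, adjusted p = 0.0466), Cy5 alone (1.26, adjusted p = 0.0334), probe means (adjusted p = 0.0499) and the term for replicates 4 and 5 (adjusted p = 0.015). With slide as a fixed term the Ly9 difference was 3.02 at 0 h, 2.72 at 6 h and -1.63 at 24 h (adjusted p = 0.00171, 0.0272 and 0.0491).

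**Figure D2:**
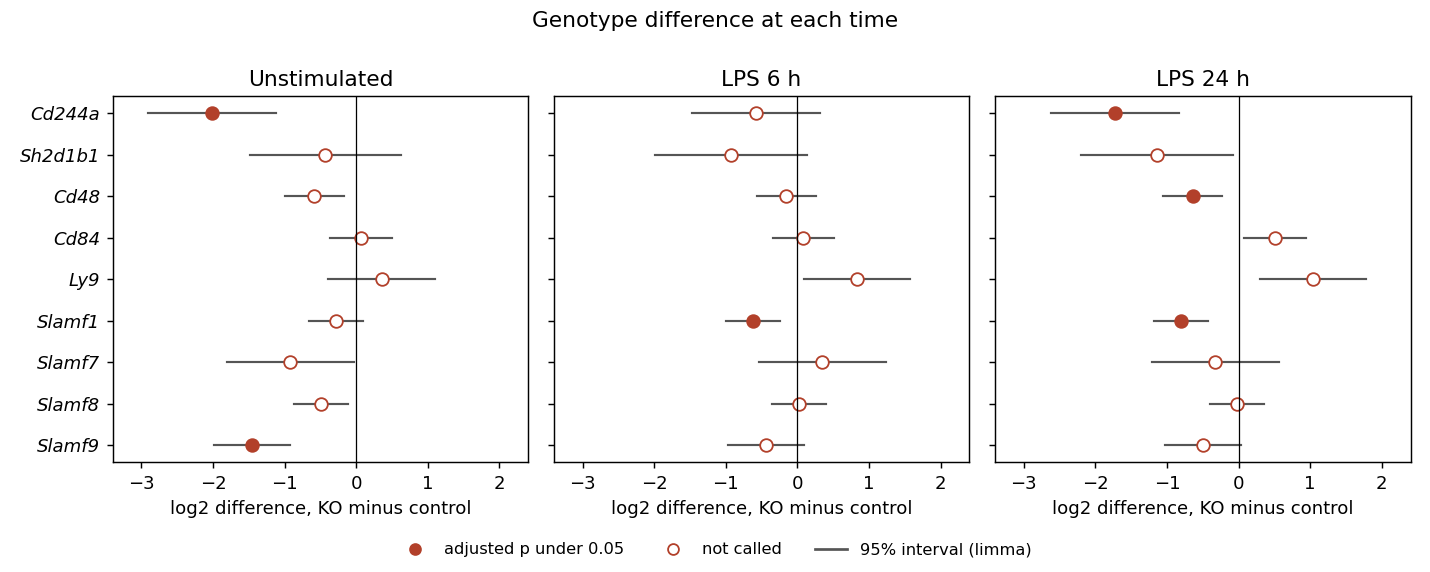
Difference between genotypes for each gene (KO minus control, log2, x axis) in unstimulated cells and at 6 h and 24 h of LPS, with lines for 95% intervals from limma and filled points where the adjusted p was under 0.05. Filled points lie left of 0: Cd244a and Slamf9 at 0 h, Slamf1 at 6 h, and Cd244a, Cd48 and Slamf1 at 24 h.

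LPS is a cell wall component of Gram-negative bacteria. In the fit used here, every tested member that was called against unstimulated cells was higher with LPS. Cd244a and Sh2d1b1 had lower levels after LPS in both genotypes, which is how they were chosen. Slamf7, a receptor that signals through EAT-2 in NK cells, rose most, by 7.12-fold in KO and 2.96-fold in control cells at 6 h. Ly9 and Slamf8 rose in KO cells at both times, Slamf9 and Cd48 in KO cells at 6 h, and Slamf1 in control cells at 6 h. The Slamf1 difference in control cells at 24 h is against the group that let it pass the filter, and supports nothing.

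For Cd244a the levels above give LPS differences in KO cells of -0.84 at 6 h and -1.45 at 24 h, and in control cells of -2.29 and -1.74 (-2.63 and -2.06 without the arrays of the later slide). In KO cells the arrays of unstimulated and LPS groups overlapped at both times, while in control cells none did. The difference of responses, KO minus control, was 1.45 at 6 h and 0.30 at 24 h. With slide as a fixed term the KO difference at 24 h was 0.93 for Cd244a and 2.30 for Sh2d1b1.

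Sh2d1b1 on unstimulated arrays was 3.53, 3.46, 3.28, 3.71 and 4.47 in KO cells, against 3.83, 4.07, 3.93, 4.09 and 4.68 in control cells. At 6 h it was 0.96, 0.42, 0.11, 2.19 and 2.45 in KO cells, against 1.24, 1.14, 3.58, 2.05 and 2.77 in control cells. At 24 h it was 0.86, 0.74, 0.60, 3.01 and 2.98 in KO cells, against 2.27, 3.35, 2.05, 3.31 and 2.92 in control cells. All LPS arrays were below all unstimulated arrays of their genotype, and in KO cells with LPS replicates 4 and 5 lay far above replicates 1 to 3. The mean LPS differences were -2.46 at 6 h and -2.05 at 24 h in KO cells, and -1.96 and -1.34 in control cells. In KO cells at 6 h the probe was well above background on 3 of 5 arrays. A second, dimmer probe had means of 0.76, 0.11 and 0.14 in KO cells and 0.81, 0.21 and 0.29 in control cells at 0, 6 and 24 h. This second probe was well above background on 5, 0 and 0 of 5 KO arrays and on 3, 1 and 1 of 5 control arrays.

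Of the 7 members tested for LPS, 5 were called in KO cells at 6 h, all higher (Cd48, Ly9, Slamf7, Slamf8 and Slamf9), against 26.6% of all genes, and 3 at 24 h (Ly9, Slamf7 and Slamf8), against 18.1%. In control cells 2 were called at 6 h, against 11.7% of all genes, and 2 at 24 h, against 12.3%; both times these were Slamf1 and Slamf7, and without Slamf1 it was 1 of 6. The median of the 7 in KO cells was 0.79 at 6 h and 0.54 at 24 h, against 0.025 and 0.017 over all genes, and in control cells it was 0.33 and 0.18, against 0.0067 and 0.016. LPS arrays were set against the same unstimulated arrays at both times, so the 2 times are not independent.

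Slamf7 on unstimulated arrays was 1.61, 2.25, 2.03, 1.86 and 0.84 in KO cells, against 2.77, 3.18, 3.22, 2.39 and 1.62 in control cells. At 6 h it was 4.86, 4.98, 4.97, 4.36 and 3.57 in KO cells, against 5.09, 5.14, 2.74, 3.97 and 4.06 in control cells. At 24 h it was 4.28, 4.51, 4.38, 3.01 and 2.93 in KO cells, against 4.82, 3.84, 4.77, 3.58 and 3.71 in control cells. All KO arrays with LPS were above all unstimulated KO arrays, and in control cells the later-slide array at 6 h was the only one with LPS that fell among the unstimulated arrays. The rise in KO cells was 2.83 ± 0.43 (SE, log2; adjusted p = 1.8e-05) at 6 h and 2.10 at 24 h (adjusted p = 0.00094). In control cells it was 1.56 at 6 h (adjusted p = 0.0165; 1.93 without the later slide) and 1.51 at 24 h (adjusted p = 0.0204). The control calls were lost without unstimulated replicate 5, without replicate 1 or 2 at 6 h and without replicate 1 or 3 at 24 h (adjusted p = 0.0505 to 0.0721), and the 6 h call with only the arrays compared (adjusted p = 0.101). The 24 h control call was also lost with Cy5 alone (1.89, adjusted p = 0.06). With slide as a fixed term the difference at 24 h was -2.41 in KO cells and 4.00 in control cells. Within a slide, where 1 KO array at 6 h met 3 unstimulated KO arrays, Slamf7 differed by 3.28. Within another slide, where 2 control arrays at 6 h met 2 unstimulated control arrays, it differed by 3.11. Its second probe gave group means of 1.60, 3.83 and 3.52 in KO cells and 2.29, 3.55 and 3.61 in control cells at 0, 6 and 24 h.

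Slamf9 rose in KO cells at 6 h by 1.35 ± 0.26 (SE, log2; adjusted p = 0.000311), and its level at 24 h was 0.54 above unstimulated KO cells (adjusted p = 0.161). In control cells its LPS differences were 0.33 and -0.42, neither called (adjusted p = 0.48 and 0.327). Ly9 in KO cells lay at 1.77 to 2.47 unstimulated, 2.78 to 3.62 at 6 h and 2.81 to 3.82 at 24 h, with no overlap between unstimulated and LPS arrays. Its rises were 1.07 (adjusted p = 0.0296) and 1.18 (adjusted p = 0.0235). Neither was called with slide as a random block (adjusted p = 0.0525 and 0.0706) or without KO unstimulated replicate 1 or 5. The 6 h call was also lost without KO replicate 1, 2 or 3 at 6 h, and the 24 h call without KO replicate 2 or 3 at 24 h. With slide as a fixed term the 24 h difference was -2.23. Control arrays of Ly9 spread from 1.33 to 2.25 unstimulated, 1.07 to 3.11 at 6 h and 0.93 to 3.32 at 24 h, and the differences of 0.59 and 0.50 were not called (adjusted p = 0.342 and 0.419). Without the later slide the control difference at 6 h was 0.92 and called (adjusted p = 0.0471).

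Slamf8, like Slamf9 a receptor with a short tail, lay at 2.15 to 2.39 in unstimulated KO cells, 2.85 to 3.41 at 6 h and 2.69 to 2.97 at 24 h, again with no overlap. It rose by 0.79 ± 0.18 (SE, log2; adjusted p = 0.00176) and 0.59 (adjusted p = 0.0243), though with the scanner software's own log ratios these were 0.21 and 0.10 and not called (adjusted p = 0.493 and 0.779). The 24 h call was also lost without KO unstimulated replicate 1 or 4 or KO LPS 24 h replicate 4. In control cells its differences were 0.28 and 0.12 (adjusted p = 0.387 and 0.757), and at 6 h it was called without the later slide (0.46, adjusted p = 0.0351) and with Cy5 alone (0.98, adjusted p = 0.0407). Cd48 in KO cells rose by 0.63 ± 0.20 (SE, log2; adjusted p = 0.0209) at 6 h with no overlap (0.55 without unstimulated replicate 1 and 0.54 without LPS replicate 4, neither called). This rise was also not called with Cy5 alone (0.45, adjusted p = 0.181), the backgrounds as scanned (adjusted p = 0.0748) or slide as a fixed term (0.27, adjusted p = 0.772). At 24 h Cd48 in KO cells differed by 0.13 (adjusted p = 0.71). In control cells it differed by 0.20 and 0.18 (adjusted p = 0.613 and 0.628). Within the slides described for Slamf7, a different slide for each genotype, Cd48 differed by 0.27 in KO cells and -0.12 in control cells at 6 h.

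Slamf1 on unstimulated arrays was 0.046, -0.072, 0.20, 0.12 and -0.13 in KO cells, against 0.55, 0.25, 0.25, 0.24 and 0.30 in control cells. In control cells it rose by 0.75 ± 0.18 (SE, log2; adjusted p = 0.00815) at 6 h, not called with only the arrays compared (adjusted p = 0.119). The fitted difference at 24 h was 0.93 ± 0.18 (adjusted p = 0.00163). It is against the group that let Slamf1 pass the filter, so this value supports nothing. In KO cells the LPS groups did not overlap the unstimulated group. In Cy5 signal, the observed mean rose by at least 1.25-fold at 6 h and 1.22-fold at 24 h by the bound described above, which has no interval. At each of these times 3 of 5 KO arrays were well above background. The fitted differences of 0.41 and 0.42 were not called (adjusted p = 0.10 and 0.121), with unadjusted 95% intervals of 0.033 to 0.79 and 0.038 to 0.80. They were called with only the arrays compared (adjusted p = 0.00791 and 0.00946) and, at 1.84 and 2.25, with the scanner software's own log ratios (adjusted p = 0.00187 and 0.000473). Cd84, a self-binding receptor also found on mast cells and platelets, did not pass the test in any of the 11 comparisons. Its 24 h difference between KO and control of 0.51 had an unadjusted 95% interval of 0.078 to 0.94 and was called with Cy5 alone (1.03, adjusted p = 0.011), as was its LPS difference in control cells at 24 h (-1.28, adjusted p = 0.00358). Its level was 5.03 to 5.95 over all KO arrays and 4.13 to 5.77 over all control arrays, and the 95% interval of its LPS difference at 6 h ran from -0.48 to 0.38 in KO cells and from -0.50 to 0.36 in control cells.

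**Figure D3:**
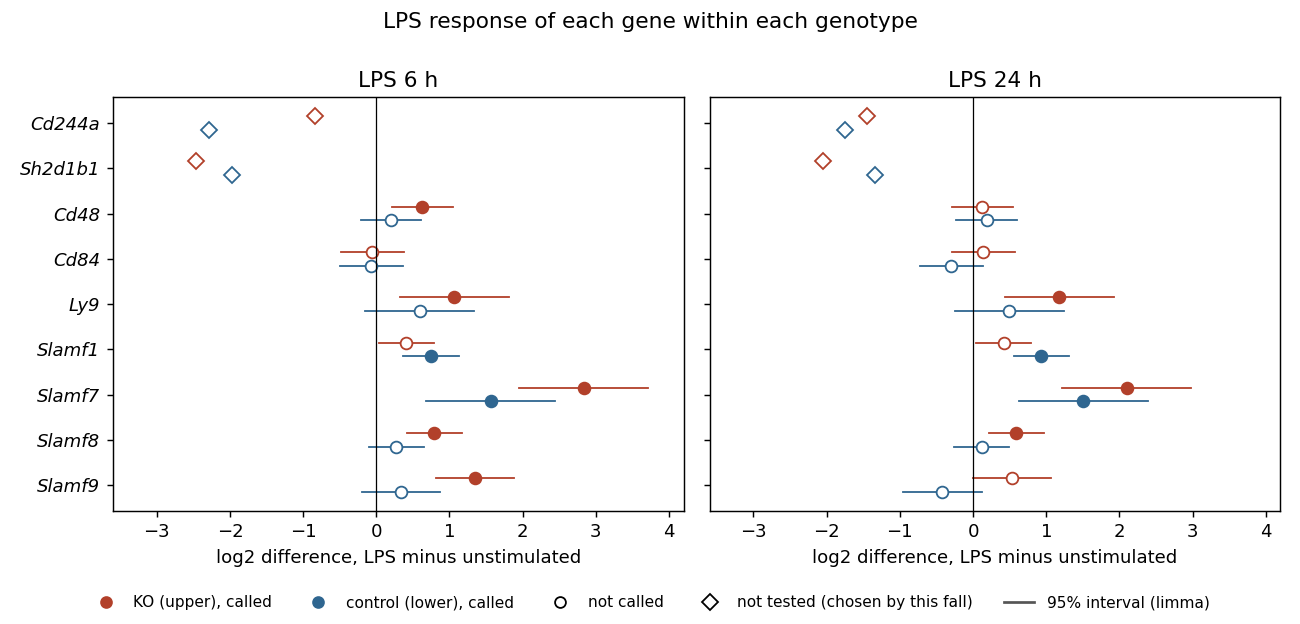
LPS minus unstimulated difference for each gene (log2, x axis) at 6 h and 24 h, with KO above control in each row, lines for 95% intervals from limma, filled points where the adjusted p was under 0.05 and open diamonds for the pair chosen by this fall, which were not tested. Slamf7 lies right of 0 in both genotypes at both times and all intervals of Cd84 cross 0.

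From 6 h to 24 h of LPS, 0 of 7 members were called in KO cells by limma (2 at an unadjusted p under 0.05), against 7.74% of all genes, and 0 of 7 in control cells (1 at an unadjusted p under 0.05), against 5.48%. Slamf9 came nearest, at -0.82 in KO cells (adjusted p = 0.0519), with no overlap of the groups, and -0.75 in control cells (adjusted p = 0.0932). When replicate numbers entered the fit as a block, Slamf9 (adjusted p = 0.0316) and Cd48 (-0.50, adjusted p = 0.0277) were called in KO cells, where all 5 same-numbered pairs deviated together.

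Whether the genotypes responded differently to LPS was tested as a difference of log2 responses. It was called for 0 of 7 members at 6 h by limma (2 at an unadjusted p under 0.05), against 0.435% of all genes, and for 0 of 7 at 24 h (1 at an unadjusted p under 0.05), against 0.879%. The responses of Slamf9 differed by 1.02 at 6 h and 0.95 at 24 h (unadjusted p = 0.0102 and 0.0154; adjusted p = 0.353 and 0.273), with 95% intervals of 0.26 to 1.77 and 0.20 to 1.71. For Slamf7 it was 1.27 at 6 h (unadjusted p = 0.0463, adjusted p = 0.602). A response called in one genotype and not in the other is therefore not shown to differ between them for any of the 7.

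The replicate sets differed for several members. Sh2d1b1 was higher in replicates 4 and 5 than in replicates 1 to 3 in all 6 groups, by 0.42 to 2.26, and Cd84 was higher in all 6, by 0.093 to 0.69. Slamf7 was lower in replicates 4 and 5 in all 6 groups, by 0.31 to 1.42 in size, and Ly9 was lower in all 6, by 0.017 to 1.14 in size. Cd244a was higher in them by 0.99, 1.36 and 1.30 in KO cells at 0, 6 and 24 h, and differed by 0.59, -0.37 and -0.16 in control cells. The labels do not say what set these replicates apart. With a term for replicates 4 and 5, added after the data were seen, the members called between KO and control were 5 at 0 h, 1 at 6 h and 6 at 24 h, while 3447, 2803 and 3120 of all 11260 genes were called. It added Cd48, Slamf7 and Slamf8, all lower in KO cells, at 0 h, and at 24 h Sh2d1b1, lower in KO cells (adjusted p = 0.0301), with Cd84 and Ly9, higher in KO cells (adjusted p = 0.0294 and 0.015).

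**Figure D4:**
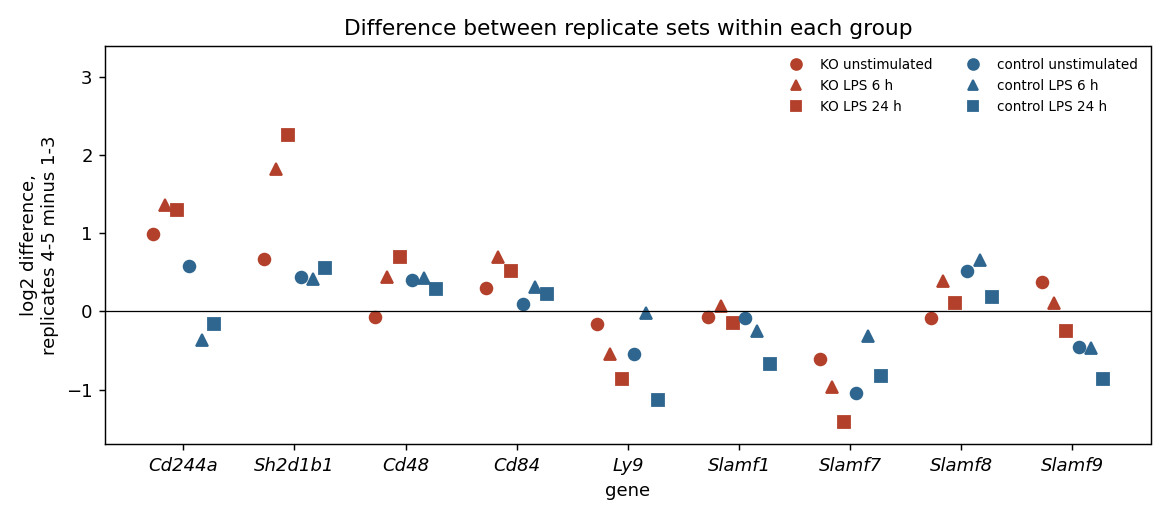
Mean of replicates 4 and 5 minus mean of replicates 1 to 3 (log2, y axis) for each gene (x axis) in each of the 6 groups, KO in red and control in blue, with circles for unstimulated cells, triangles for 6 h and squares for 24 h of LPS. All 6 points of Sh2d1b1 and Cd84 lie above 0 and all 6 of Ly9 and Slamf7 lie below it.

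Among the members themselves, levels over the 30 arrays were most alike for Cd244a and Sh2d1b1 (r = 0.849), which were chosen for a shared fall, and most opposed for Sh2d1b1 with Ly9 (r = -0.856) and with Slamf7 (r = -0.847). These are descriptions over arrays that share the 6 groups and the replicate sets. The gene most like Cd244a of all 11234 with a value on every array was Rgs18 (r = 0.913), and the one most like Sh2d1b1 was Tec (r = 0.928), a kinase gene. Slamf7 ran closest with Tap1 (r = 0.973), Trafd1 (r = 0.971) and Stat2 (r = 0.970), genes known to be induced by interferon. Ly9 ran closest with Gbp8 (r = 0.928), of the interferon-induced guanylate binding proteins, Cd48 with Kynu (r = 0.932), Slamf8 with Mzb1 (r = 0.924), Slamf1 with Dnajc7 (r = 0.893), Slamf9 with Fgl2 (r = 0.879) and Cd84 with Gtpbp8 (r = 0.857).

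Of the rest of the family, Slamf6, a self-binding receptor that is not among the 9, was past the filter, Sh2d1a was on the array and not past it, and Sh2d1b2 is not analysed here. Slamf6 at 24 h of LPS was 4.64, 4.96, 4.90, 5.33 and 4.92 on the KO arrays, against 3.46, 2.55, 3.18, 3.07 and 3.42 on the control arrays. The groups were far apart and the difference was 1.81 ± 0.32 (SE, log2; adjusted p = 0.000265), opposite in sign to every called member. It was 1.25 at 6 h (adjusted p = 0.00952) and 0.13 in unstimulated cells (adjusted p = 0.825). In KO cells Slamf6 rose with LPS by 1.03 at 6 h and 2.39 at 24 h (adjusted p = 0.0176 and 8.6e-06), while in control cells the differences were -0.09 and 0.71 (adjusted p = 0.91 and 0.153), and the difference of the 24 h responses was 1.67 (adjusted p = 0.0741). A second probe of Slamf6 had means of 1.02 in KO cells and 0.50 in control cells at 24 h.

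The receptor genes lie in 1 cluster on chromosome 1, in the order Cd244a, Ly9, Slamf7, Cd48, Slamf1, Cd84 and Slamf6, followed after other genes by Slamf9 and Slamf8. The 10 tested genes between the outermost receptor genes that are not receptors gave 0 higher and 2 lower calls between KO and control at each time, where 14.1, 12.1 and 15.4% of all genes were called, with medians of 0.22, 0.11 and -0.069. Igsf9 was lower in KO cells by 0.74, 0.95 and 1.10 on the log2 scale at 0, 6 and 24 h, Pex19 by 0.63 at 0 h, and Nhlh1 by 1.14 at 6 h and 1.38 at 24 h. With LPS, Igsf8 rose by 1.35 in KO cells at 6 h, Igsf9 by 0.67 in control cells at 6 h and Nhlh1 by 0.75 in control cells at 24 h, and Pea15a fell by 0.58 in KO cells at 24 h.

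A list of 36 genes that act with or downstream of SLAM receptors had 32 tested members. Between KO and control 3 were higher and 3 lower at 0 h, 1 and 4 at 6 h, and 5 and 5 at 24 h, where 14.1, 12.1 and 15.4% of all genes were called, with medians of 0.14, 0.099 and 0.032, against -0.038, -0.012 and -0.0051 over all genes. Dok2, an adaptor that restrains Ras signalling, was lower in KO cells by 1.33 at 0 h and 1.82 at 6 h on the log2 scale (adjusted p = 8.1e-05 and 1.7e-06), its relative Dok1 by 0.71 and 0.70, and Csk, the kinase that holds Src family kinases inactive, by 0.61 and 0.86. Ptprc, the CD45 phosphatase, was higher in KO cells by 1.21 at 6 h. Tyrobp and Rasa1 were higher in KO cells by 0.45 and 0.35 at 0 h, and Cybb, the catalytic subunit of the phagocyte oxidase, by 1.17 at 0 h and 1.28 at 24 h, there with Ncf4 and Cyba by 0.73 and 0.68. At 24 h Pik3r1, Uvrag and the kinase Fyn, a partner of SAP, were lower in KO cells by 1.06, 0.83 and 0.75.

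With LPS, 8 of the 32 rose and 4 fell in KO cells at 6 h, and 5 rose and 5 fell at 24 h, while in control cells 5 rose and 1 fell at 6 h and 6 rose and 3 fell at 24 h. Of all genes 26.6 and 18.1% were called in KO cells and 11.7 and 12.3% in control cells. The medians were 0.13 and 0.071 in KO and 0.13 and 0.096 in control cells, against 0.025, 0.017, 0.0067 and 0.016 over all genes. The Src family kinase gene Lck rose at 6 h by 1.19 in KO and by 1.74 in control cells, and Nfkb1 rose by 1.62 in KO cells. Dok2 fell by 1.71 in KO cells and by 1.23 in control cells at 6 h, and Inpp5d, the phosphatase SHIP-1, fell by 1.53 in KO cells. At 24 h Dok1 and Ncf4 rose by 1.11 and 0.98 in KO cells, where Fgr, Fyn and Csk fell by 0.85, 0.61 and 0.51. In control cells at 24 h Nfkb1, Pik3r1 and Src rose by 1.03, 1.00 and 0.91, and Dok2, Csk and Tyrobp fell by 1.14, 0.56 and 0.47. The response at 24 h differed between the genotypes for 1 of the 32, Fyn, by -1.15 (adjusted p = 0.00743).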

How the data were processed

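RNA of CD11c-selected bone marrow-derived dendritic cells was measured on 30 Agilent arrays, 5 per group, with sample RNA in Cy5 and universal mouse reference RNA in Cy3 and no dye swap, per the labels. The scanner files hold spot intensity values, deposited as the scanner software gave them, and a log10 ratio that the same software had background subtracted and dye normalised, per the file headers, which name Feature Extraction 10.7.3.1. The authors also deposited a table of log2 ratios, for which the submitters' processing notes name limma without a version; it correlated at 0.999885 to 0.999998 with the values computed here, had column medians of 0.00584 to 0.0183, and so was read as not centred and in the same direction.

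Intensities were corrected with normexp (offset 50) and loess in limma 3.58.1 under R 4.3.3, after local backgrounds marked non-uniform were set to the array median. The 1639 control spots had weight 0 and were left out, as were outlier spots. Of 41174 probes 22951 were named through their accession and a RefSeq table of 49997 genes, for 16358 genes. Probes well above background on all 5 arrays of at least 1 group left 11260 genes, each represented by its brightest Cy5 probe. A gene with a missing spot was fitted without that array. Median Cy5 was 101 to 151 per array.

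One mean per group was fitted to all 30 arrays (24 residual degrees of freedom, eBayes without trend) and 11 contrasts were adjusted over all genes. The steps were tested on simulated data. The members and gene lists were chosen with earlier results of these data known. All members are named, with up to 3 called genes each way from the signalling list, 3 from the locus, and the 3 most alike by Pearson r, of which the text gives at least the first; some results that this rule names are not reported here. Same-numbered replicates deviated together (every correlation over 0.1) for LPS 6 h against unstimulated KO, LPS 24 h against 6 h in KO and LPS 24 h against unstimulated control; this comes from the data and not from the labels. Alternatives covered the replicate block, slide, background, normalization, channel, filter, probe choice, variance prior, samples in the fit and each array left out. The array design and the RefSeq table use different builds, so only promoter coordinates, on GRCm38.p6, are given. Protein sequences are not used here.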

Additional observations from a re-analysis of the deposited data

Results flagged for a closer look

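Over 54 sets of 5 arrays (9 genes in 6 groups), 4 held an array that stood apart from the others of its group by Dixon's test, and chance alone flags about 1 set in 20. Cd244a in control LPS 6 h replicate 3 had a level of 3.39, above the 1.51 to 2.01 of the other 4 arrays. Cd84 in control LPS 24 h replicate 2 had a level of 4.13, below the 5.09 to 5.45 of the other 4. Both arrays belong to the slide scanned on a later day. Cd84 in unstimulated control replicate 5 had a level of 5.53, above 5.24 to 5.30, and Slamf1 in unstimulated control replicate 1 had a level of 0.55, above 0.24 to 0.30.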

How the results depend on the processing

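The direction of every called member difference held under every alternative run other than slide as a fixed term. Differences not called in either setting changed sign in 103 tested cases over all settings. All 17 turned directions came with slide as a fixed term (added after seeing the data), under which contrasts rest on few linking arrays. KO minus control became 1.38 for Slamf1, 2.28 for Slamf7 and 0.51 for Slamf9 at 0 h, 0.35 for Slamf1 at 6 h, and 0.51 for Cd244a, 0.25 for Cd48 and -1.63 for Ly9 at 24 h. LPS 24 h minus unstimulated in KO cells became -2.23 for Ly9, -1.34 for Slamf1, -2.41 for Slamf7 and -1.92 for Slamf9, LPS 24 h minus 6 h in KO cells -3.53 for Ly9 and -1.63 for Slamf1, and LPS 24 h minus unstimulated in control cells 1.12 for Slamf9. The 24 h response difference became -4.65 for Ly9, -6.40 for Slamf7 and -3.04 for Slamf9. The cause was not tested.

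These counts of members move with the counts of all genes: with the replicate block 3340, 2733 and 3044 genes were called between KO and control at 0, 6 and 24 h, with fixed slide 5699, 1205 and 5069, and with the set term 3447, 2803 and 3120. Members called between KO and control at 0 h (2) were 5 with the replicate block, 6 with fixed slide, 5 with the replicate-set term, 1 with backgrounds as scanned, 4 without the later slide and 4 with only the arrays compared. At 6 h (1) they were 0 with random slide, 0 with Cy5 alone, 0 with backgrounds as scanned and 0 with only the arrays compared. At 24 h (3) they were 6 with the replicate block, 6 with the set term and 5 with Cy5 alone. For LPS in KO cells the 5 at 6 h became 2 with fixed slide and 3 with Cy5 alone, and the 3 at 24 h became 5 with fixed slide and 5 with only the arrays compared. The 0 from 6 h to 24 h became 2 with the replicate block, 4 with fixed slide, 2 with the set term, and 1 each with Cy5 alone, probe means, the later slide left out and only the arrays compared. For LPS in control cells the 2 at 6 h became 4 with fixed slide, 4 without the later slide and 0 with only the arrays compared, the 2 at 24 h became 4 with fixed slide, and the 0 from 6 h to 24 h became 1 with fixed slide, 1 with the set term and 1 with Cy5 alone. The 0 for the 24 h response difference became 5 with fixed slide and 1 with Cy5 alone.

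With each array left out, the counts between KO and control were 2 to 4, 0 to 1 and 2 to 4 at 0, 6 and 24 h, those for LPS in KO cells 3 to 6, 1 to 3 and 0 to 1 (6 h, 24 h, and 24 h against 6 h), those in control cells 1 to 4, 1 to 2 and 0 to 1, and both response differences 0 to 0. The replicate block, where the numbers pair the arrays by the data, changed no other call than those of Slamf9 and Cd48 in KO cells. In the remaining comparisons not every pair's correlation was over 0.1 (range -0.336 to 0.809), though replicates 4 and 5 differed from the others alike in all groups. There the block called Cd48, Slamf7 and Slamf8 lower in KO cells at 0 h and, at 24 h, Sh2d1b1 lower and Cd84 and Ly9 higher (adjusted p = 0.0369 and 0.0215). Over the alternatives other than left-out arrays, the genes called of all tested numbered 1242 to 5699, 726 to 2803 and 1137 to 5069 between KO and control at 0, 6 and 24 h (1587, 1364 and 1735 as reported), 893 to 4872, 1513 to 6230 and 475 to 5842 for LPS in KO cells (2996, 2037 and 872), 66 to 3873, 984 to 4715 and 75 to 1666 in control cells (1313, 1385 and 617), and 28 to 174 and 35 to 6030 for the response differences (49 and 99). The random slide block had a consensus correlation of 0.103. Limits are the 5 arrays per group, the dim Slamf1 probe and 9 slides that never held both genotypes at 1 treatment. The Sh2d1b1 probe was also dim on some KO arrays at 6 h, with 3 of 5 well above background.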
